A study of Mus musculus with 12 samples.

Results

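The 9 genes described here, Mbp, Mag, Mobp, Cnp, Mog, Cldn11, Opalin, Ermn and Mal, encode proteins of myelin and of the oligodendrocytes that make it, and were chosen by name from the 20614 genes of the expression table. All 9 were present in the table. They were measured in RNA from astrocytes that were isolated with magnetic beads from the striatum, thalamus and substantia nigra, called midbrain in the study, of male mice 12 to 14 months old. Each of the 12 libraries belonged to Cd38+/+ mice (n = 3), Cd38+/- mice (n = 3) or Cd38-/- mice (n = 6), bred on the C57BL/6J strain. The mutant allele is a global disruption of exons 2 to 3 of Cd38, an enzyme that consumes NAD, so that every cell of the Cd38-/- mice carries it and not the astrocytes alone. Beads against endothelial cells and against myelin and oligodendrocytes removed those cells and debris, beads against CD11b removed microglia, and the astrocytes were then captured by ACSA-2, the protein product of Atp1b2. The labels do not say whether each library is a separate animal, so p-values measure the spread between these libraries.

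Oligodendrocytes wrap axons in a multilayered membrane. Mbp and Mobp encode basic proteins of compact myelin, Cnp an enzyme that keeps cytoplasmic channels open within the sheath, and Mag and Mog adhesion or surface proteins of its innermost and outermost layers. Cldn11 forms the tight junctions of the sheath, Opalin is a membrane protein of its loops, Ermn acts on the cytoskeleton of mature oligodendrocytes, and Mal sorts lipids and proteins to the membrane. Mbp and Mobp mRNAs are known to be carried into oligodendrocyte processes and translated close to the myelin.

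The values are in TPM, an expression level per transcript length scaled to the same sum in each library, so that levels can be compared between genes. TPM does not keep the read depth, so counting error is not given here, and a 0 is not evidence of a level below any limit. Between 13160 and 13516 genes were above 0 in the Cd38+/+ libraries, against 16160 to 16327 in Cd38+/- and 15920 to 17906 in Cd38-/- libraries, so detection runs along genotype. Cd38 itself was 148.64, 120.04 and 104.88 TPM in Cd38+/+, 90.80, 90.70 and 90.36 TPM in Cd38+/-, and 8.54 to 21.86 TPM in Cd38-/- libraries, without overlap between genotypes. Of 12 astrocyte marker genes, 12 were above 0 in every library, and they summed to between 17085 and 27771 TPM.

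Promoter sequences are shown for 4 of the 9 genes because their values, already known when they were picked, differed across libraries: Mobp spanned 23.4-fold and followed Mbp, Cnp spanned 1.50-fold, Mog was listed at 0 in 1 genotype, and Mal followed the other genes least. Each is the 250 bases before a RefSeq transcription start on GRCm38.p6, written 5′ to 3′ on the strand of the gene: Mobp at chr9:120149492-120149741 (plus strand), Cnp at chr11:100574689-100574938 (plus), Mog at chr17:37023399-37023648 (minus) and Mal at chr2:127656696-127656945 (minus). Capitals mark matches, on either strand, to the core bound by SOX factors such as Sox10 (ACAAAG or ACAATG) or to a motif of Myrf (CTGGCAC or CTGGTAC), the regulators of the oligodendrocyte lineage and of myelin genes.
Mobp: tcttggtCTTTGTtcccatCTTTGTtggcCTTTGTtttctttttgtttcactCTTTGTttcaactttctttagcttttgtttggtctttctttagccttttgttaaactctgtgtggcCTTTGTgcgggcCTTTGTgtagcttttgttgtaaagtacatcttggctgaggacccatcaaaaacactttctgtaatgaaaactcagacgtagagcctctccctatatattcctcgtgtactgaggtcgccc
Cnp: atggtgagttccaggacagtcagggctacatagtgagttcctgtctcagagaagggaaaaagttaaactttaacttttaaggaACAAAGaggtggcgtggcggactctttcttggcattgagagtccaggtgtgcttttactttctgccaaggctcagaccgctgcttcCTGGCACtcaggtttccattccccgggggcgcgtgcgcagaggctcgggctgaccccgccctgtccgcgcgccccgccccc
Mog: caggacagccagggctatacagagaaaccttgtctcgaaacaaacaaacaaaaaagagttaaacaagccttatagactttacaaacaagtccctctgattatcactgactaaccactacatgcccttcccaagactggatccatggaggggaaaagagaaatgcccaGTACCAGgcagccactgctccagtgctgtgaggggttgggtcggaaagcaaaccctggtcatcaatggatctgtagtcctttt
Mal: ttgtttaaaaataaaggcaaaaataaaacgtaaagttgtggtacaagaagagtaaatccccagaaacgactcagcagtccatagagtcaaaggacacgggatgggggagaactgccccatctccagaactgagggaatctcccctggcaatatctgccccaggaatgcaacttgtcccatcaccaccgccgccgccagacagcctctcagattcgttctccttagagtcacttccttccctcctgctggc
The Mobp window held 6 SOX core matches, all written CTTTGT on this strand, and 0 Myrf matches. The Cnp window held 1 of each, the Mog window 1 Myrf match and 0 SOX core matches, and the Mal window 0 of either. Among the others, 1 SOX core match was found in each window of Ermn and Opalin. Both motifs were found once in each of 2 overlapping windows of Mag, in a stretch that the windows share. Neither was in a further window of Mag or in the window of Cldn11. Of all 32851 promoter windows of this length, 25.2% held a SOX core and 5.93% a Myrf motif. The E-box CAGCTG, read by Olig factors and present in 13.0% of windows, was in 0 of the 10 windows of these genes. A match to these letters is a description and not a binding site, and 0 matches say only that the letters are not in the window.

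The 9 genes were a visible part of the astrocyte libraries, and Mbp and Mobp, which made up most of their sum, varied more between libraries of 1 genotype than between genotypes. Their summed expression was 1282 to 7147 TPM in Cd38+/+, 3013 to 10644 TPM in Cd38+/- and 3112 to 17615 TPM in Cd38-/- libraries, or 0.128% to 1.76% of all TPM. The share of Mbp and Mobp in that sum was 58.3% to 96.1%. Mbp ranked between 3 and 186 among all genes, above Gja1, the gap junction gene of astrocytes (1820 to 3397 TPM), in some libraries and below it in others. The ranges of all 3 genotypes overlapped.

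**Figure D1:**
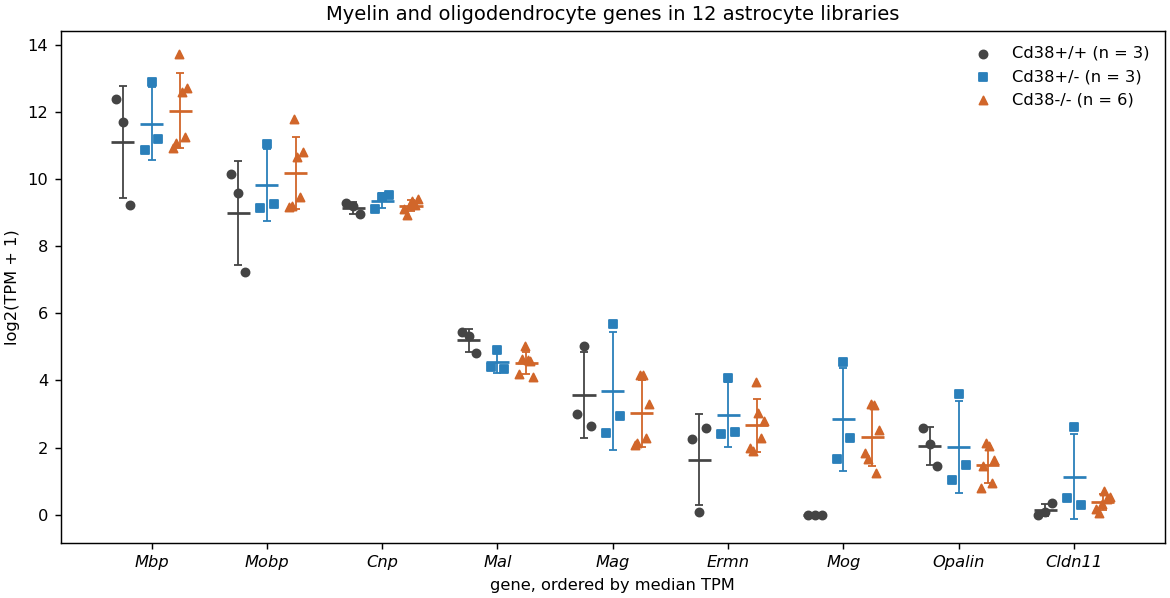
Expression of the 9 genes as log2(TPM + 1) on the vertical axis, ordered by median TPM, with 1 point per library, circles for Cd38+/+ (n = 3), squares for Cd38+/- (n = 3) and triangles for Cd38-/- (n = 6); horizontal bars are means and error bars SDs. Mbp and Mobp spread over more than 4 log2 units, Cnp stays between 488.76 and 734.63 TPM, and Mog is at 0 in the 3 Cd38+/+ libraries.

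Mbp (chromosome 18, 82475146 to 82585637, plus strand, GRCm38) was the highest of the 9 in every library. It was 5317.8, 3356.3 and 597.68 TPM in Cd38+/+, 1869.0, 7678.7 and 2329.6 TPM in Cd38+/-, and 1959.5, 2155.4, 13420.0, 6170.2, 2417.0 and 6666.5 TPM in Cd38-/- libraries, each in replicate order. The highest was Cd38-/- replicate 3 and the lowest Cd38+/+ replicate 3, 22.5-fold apart, and each genotype held both high and low libraries. Group means were 3091 ± 2371 (SD, n = 3), 3959 ± 3230 (SD, n = 3) and 5465 ± 4422 TPM (SD, n = 6), so the differences between genotypes were smaller than the spread within them.

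Mobp (chromosome 9, 120149707 to 120181484, plus strand), whose product stabilises compact myelin like that of Mbp, followed Mbp closely. It was 1143.1, 771.19 and 150.06 TPM in Cd38+/+, 564.74, 2126.3 and 610.99 TPM in Cd38+/-, and 573.19, 591.88, 3516.8, 1599.7, 703.68 and 1800.2 TPM in Cd38-/- libraries. The 12 libraries stood in exactly the same order for Mobp as for Mbp. Mobp spanned 23.4-fold between libraries, but the ratio of Mbp to Mobp only moved from 3.31 to 4.65. That ratio was 3.98 to 4.65 in Cd38+/+ libraries and 3.31 to 3.86 in the other 9, without overlap; it was looked at after the values were seen and was not tested.

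Cnp (chromosome 11, 100574904 to 100591729, plus strand) was expressed at the level of Mobp but hardly varied. It was 627.78, 590.99 and 494.72 TPM in Cd38+/+, 547.05, 704.17 and 734.63 TPM in Cd38+/-, and 552.91, 488.76, 602.68, 652.89, 600.52 and 673.14 TPM in Cd38-/- libraries. These values overlap between all genotypes and lie within 1.50-fold of each other. The ratio of Mbp to Cnp ran from 1.21 in Cd38+/+ replicate 3 to 22.3 in Cd38-/- replicate 3, so these myelin genes did not keep a fixed proportion. Cnp overlaps Dnajc7 on the opposite strand, and the sources used here do not state whether the counting used strand, so a share of its reads could belong to Dnajc7. The annotation also places Galnt5 on the strand opposite Ermn, and small or pseudogene transcripts within Mbp (Rpl21-ps8), Mobp (Gm38642) and Mog (Gm22388).

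**Figure D2:**
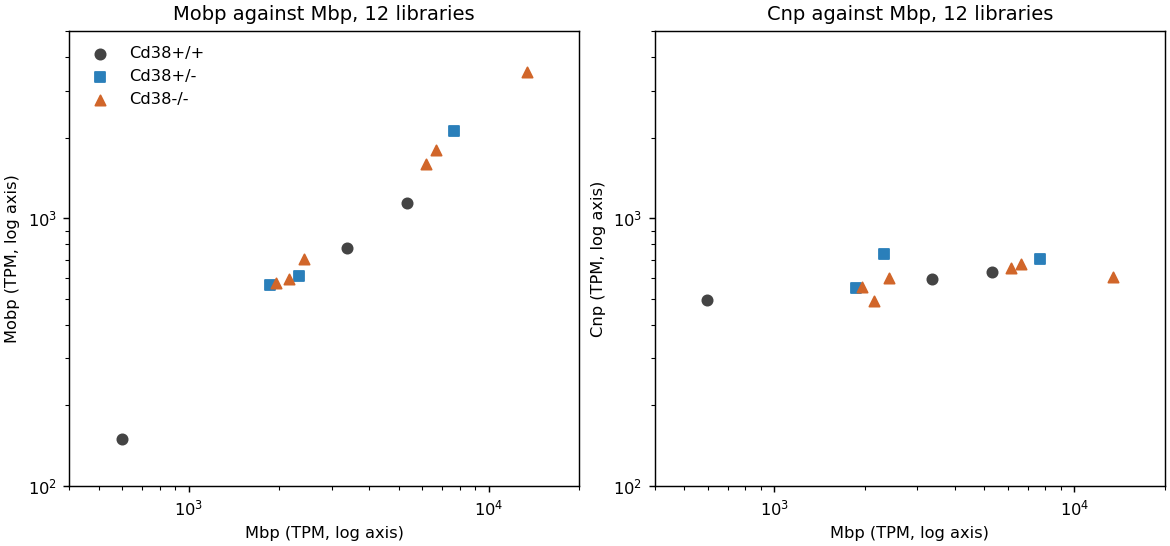
Mobp (left) and Cnp (right) against Mbp in the 12 libraries, in TPM on log axes, with circles for Cd38+/+, squares for Cd38+/- and triangles for Cd38-/- libraries. Mobp climbs with Mbp from 150.06 to 3516.8 TPM along a single line, while Cnp stays between 488.76 and 734.63 TPM over the same range of Mbp.

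Mal (chromosome 2, 127633226 to 127656695, minus strand) was the other gene of small spread. It was 42.43, 39.00 and 27.16 TPM in Cd38+/+, 20.11, 29.12 and 19.14 TPM in Cd38+/-, and 17.31, 23.86, 31.61, 23.54, 23.00 and 16.13 TPM in Cd38-/- libraries. Cd38+/+ replicates 1 and 2 were above every mutant library, whereas Cd38+/+ replicate 3 fell below 1 library of each mutant genotype. The means were 36.2 ± 8.01 (SD, n = 3), 22.8 ± 5.50 (SD, n = 3) and 22.6 ± 5.54 TPM (SD, n = 6).

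Of the adhesion and surface genes, Mag (chromosome 7, 30899176 to 30914873, minus strand) was 7.07, 31.42 and 5.21 TPM in Cd38+/+, 4.36, 50.42 and 6.70 TPM in Cd38+/-, and 3.18, 3.37, 17.06, 16.94, 3.85 and 8.84 TPM in Cd38-/- libraries. Its high libraries were Cd38+/- replicate 2 and Cd38+/+ replicate 2, not the Cd38-/- replicate 3 that was highest for Mbp. Mog (chromosome 17, 37010743 to 37023398, minus strand) was listed at 0 in the 3 Cd38+/+ libraries. It was 2.19, 22.68 and 3.87 TPM in Cd38+/- and 2.57, 2.16, 8.91, 8.56, 1.35 and 4.81 TPM in Cd38-/- libraries, so the mutant libraries overlapped each other and none overlapped Cd38+/+. Mog was not alone in this: 41 genes were at 0 in the 3 Cd38+/+ libraries and above 1 TPM in the other 9, of 12655 genes above 1 TPM in those 9. The opposite pattern was shown by 0 genes, but it needs 9 libraries at 0 instead of 3, so the counts cannot be compared. A value of 0 can be a failed estimate, and the part of the lower gene detection of the Cd38+/+ libraries in the Mog zeros cannot be told apart from genotype.

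The remaining genes were low. Ermn (chromosome 2, 58045113 to 58052864, minus strand) was 3.80, 0.06 and 4.98 TPM in Cd38+/+, 4.26, 16.0 and 4.53 TPM in Cd38+/-, and 2.7 to 14.65 TPM (median 4.91) in Cd38-/- libraries. Opalin (chromosome 19, 41061710 to 41077113, minus strand) was 4.98, 3.31 and 1.75 TPM, then 1.03, 10.99 and 1.77 TPM, and 0.73 to 3.37 TPM (median 1.90) in the same genotypes. Cldn11 (chromosome 3, 31149920 to 31164324, plus strand) was 0, 0.06 and 0.27 TPM, then 0.42, 5.11 and 0.23 TPM, and 0.04 to 0.64 TPM (median 0.32). For each of these 3 genes, and for Mag and Mog, Cd38+/- replicate 2 was the highest of all 12 libraries, and the genotypes overlapped for all but Mog. By median over 12 libraries the order of levels was Mbp, Mobp, Cnp, Mal, Mag, Ermn, Mog, Opalin and Cldn11, and the ranges of neighbours in this order overlapped except those of Cnp and Mal.

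Compared with other expressed genes, most of the 9 were among the most variable between libraries of the same genotype. The SD of log2(TPM + 1) within genotypes had a median of 0.337 over 11845 genes. It was 1.26 for Mbp, 1.27 for Mag and 1.19 for Mobp, at the 99.1, 99.2 and 98.7 percentiles of those genes. Ermn and Mog stood at 0.977 and 0.966, at the 95.5 and 95.3 percentiles. Mal, at 0.332, was typical and Cnp, at 0.186, was at the 13.3 percentile, less variable than Gja1 at 0.204. Genotype took 11.1% of the sum of squares of Mbp, 7.16% of that of Mag and 18.0% of that of Mobp. It took 13.1% for Opalin, 18.6% for Cnp, 26.3% for Ermn and 31.9% for Cldn11. It took 49.7% for Mal and 63.2% for Mog, which was listed at 0 in Cd38+/+. Any grouping of the libraries takes some share, and the share over all genes was not computed. The share of Gja1, 52.1%, was above that of Mal.

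The question of whether the mutant genotypes differed in these genes was tested with limma on log2(TPM + 1), for genes with a mean above 5 TPM in at least 1 of the compared genotypes. A gene was called at a q-value under 0.05 and a 1.2-fold change. In Cd38+/- against Cd38+/+ libraries 7 of the 9 passed this filter, Cldn11 and Opalin being too low, and 0 of 7 were called, as were 0% of all 11763 genes tested. At an unadjusted p under 0.05 there was 1 of 7, Mog, against 13.5% of all genes, and Mog was also the 1 gene of 7 whose libraries did not overlap, against 22.5% of all genes. Mog passed the filter only through its Cd38+/- libraries (limma q = 0.193), and no fold is given against a genotype listed at 0. The log2 fold change was 0.55 for Mbp (95% interval -1.23 to 2.32), 0.82 for Mobp (-0.86 to 2.50), 0.21 for Cnp (-0.16 to 0.58) and -0.64 for Mal (-1.33 to 0.04, limma q = 0.245). Ermn too passed the filter only through its Cd38+/- libraries. The median over the 5 genes above the filter in both genotypes, Mbp, Mobp, Cnp, Mal and Mag, was 0.21 beside 0.18 over all genes.

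In Cd38-/- against Cd38+/+ libraries 6 of the 9 were tested and 0 were called, against 8.28% of 11722 genes. Mog was left out here with a mean of 4.73 TPM in Cd38-/- libraries. Mal, at -0.67 on the log2 scale (standard error 0.24, 95% interval -1.20 to -0.14, limma q = 0.0747), was the 1 of 6 with an unadjusted p under 0.05, which 23.6% of all genes reached. None of the 6 was without overlap between genotypes, against 11.8% of all genes, whereas Mog, outside this test, was. The log2 fold change of Mbp was 0.94 (95% interval -0.60 to 2.48, limma q = 0.251), an interval from 0.658-fold to 5.57-fold. That of Mobp was 1.18 (-0.26 to 2.63, limma q = 0.172), an interval from 0.832-fold to 6.19-fold. The interval of Cnp, -0.22 to 0.34 around 0.06, was narrower and ended at 1.26-fold. Ermn passed the filter only through its Cd38-/- libraries, and the median over the other 5 genes was 0.06 beside 0.15 over all genes.

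Without the filter on low values all 9 genes were tested in Cd38-/- against Cd38+/+ libraries, and 1 was called, Mog (limma q = 0.0123), against 12.1% of genes. Without Cd38-/- replicate 1, 2 or 5 in turn Mog passed the filter but not the test (limma q = 0.0637, 0.0640 and 0.0546). In a two-sided exact permutation test the Mog difference reached p = 0.0119, the smallest that 6 libraries against 3 allow, and Mal p = 0.0476. These were the lowest of 27 exact permutation tests on the 9 genes and 3 comparisons, with Benjamini-Hochberg adjusted values of 0.321 and 0.611. The smallest p of the exact permutation test with 3 libraries in each genotype is 0.1, which Mog reached in Cd38+/- against Cd38+/+. Mal passed the threshold when Cd38+/+ replicate 3 was left out (limma q = 0.0206), a fit in which 26.5% of all genes were called. In bulk RNA, fewer cells of a type and less RNA per cell cannot be told apart.

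Between the mutant genotypes, Cd38-/- against Cd38+/-, 7 of the 9 genes were tested and 0 were called, against 0.0346% of 11563 genes. None of the 7 had an unadjusted p under 0.05, against 11.2% of genes, and none was without overlap, against 5.73%. Log2 fold changes lay between -0.67 for Mag (95% interval -2.22 to 0.89) and 0.39 for Mbp (-0.98 to 1.76), with a median of -0.09 over the 6 genes above the filter in both genotypes beside -0.02 over all genes. Both comparisons with Cd38+/+ share the same 3 libraries, among them the lowest library for Mbp and Mobp. Without that library, Cd38+/+ replicate 3, the log2 fold change of Mbp was -0.39 in Cd38+/- and -0.002 in Cd38-/- mice, and that of Mobp -0.06 and 0.30. The median over the 5 genes above the filter in both genotypes was then -0.33 in Cd38+/- and -0.04 in Cd38-/- libraries, beside 0.17 and 0.15 over all genes.

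**Figure D3:**
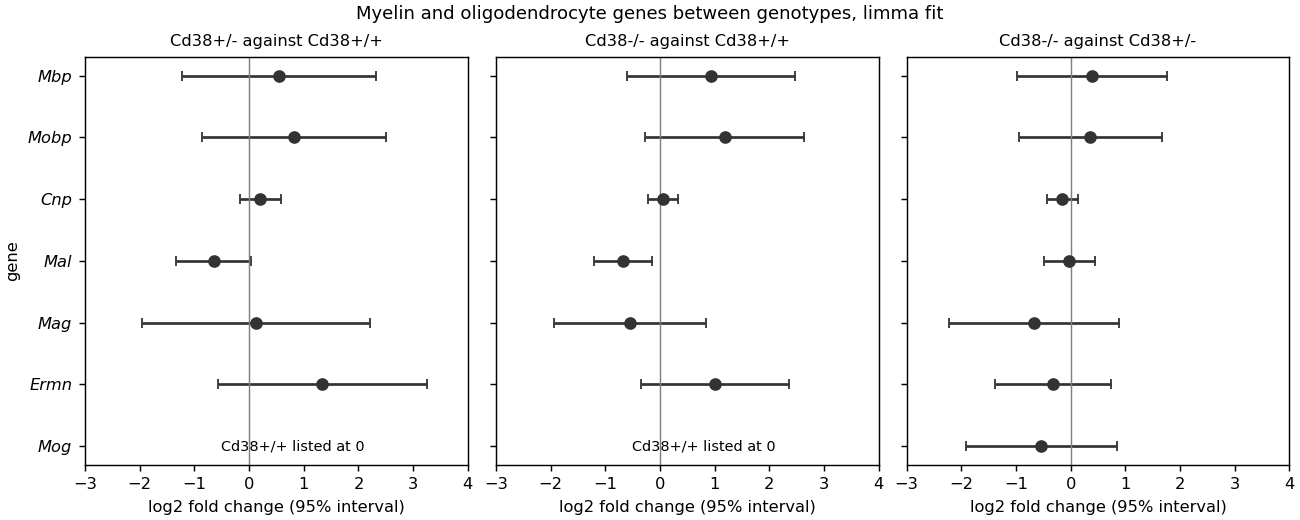
Log2 fold change of each tested gene in 3 genotype comparisons, with 95% intervals from limma as horizontal bars and a vertical line at no change. Mal lies at -0.64 and -0.67 in the comparisons with Cd38+/+, Mbp, Mobp, Mag and Ermn have wide intervals, and those of Cnp stay between -0.43 and 0.58; no fold is drawn for Mog where Cd38+/+ is listed at 0.

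How far the genes moved together was measured by correlating log2(TPM + 1) over the 12 libraries, for all 36 pairs, with permutation tests and Benjamini-Hochberg adjustment over the pairs. Mbp and Mobp had Pearson's r = 0.993 and Spearman's rho = 1, each with permutation p = 1e-05, the smallest that the 100000 resamples allow, and an adjusted value of 0.00036. Without the 2 libraries farthest from the median of Mbp, r was 0.983, and within the 6 Cd38-/- libraries it was 0.999 (exact permutation p = 0.00139, adjusted 0.05).

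Mag and Opalin, which both encode membrane proteins, had r = 0.842 (permutation p = 0.00053, adjusted 0.00954) and rho = 0.902 (p = 0.00022, adjusted 0.00396), and r = 0.728 without the 2 farthest libraries. Mog went with Ermn at r = 0.762 (permutation p = 0.00333, adjusted 0.03) and rho = 0.761 (p = 0.00555, adjusted 0.025), and at r = 0.735 without the 2 farthest libraries. Mog also went with Cldn11 at r = 0.707 (permutation p = 0.00263, adjusted 0.03), but rho was 0.627 (p = 0.0331, adjusted 0.0994). Pearson's r of this pair fell to 0.479 without Cd38+/- replicate 2 and Cd38+/+ replicate 1. The 3 Cd38+/+ libraries tie at 0 for Mog, so replicate 1 was left out by column order alone, here and for Ermn. These 4 pairs were the only ones of 36 past an adjusted 0.05 by Pearson's r, and 8 passed by Spearman's rho. By rho, Mbp and Mobp also each went with Mag (0.776) and with Opalin (0.769), and Cldn11 went with Ermn (0.776). The adjusted permutation value of each of these was 0.0244 by rho and between 0.101 and 0.16 by Pearson's r. With Cd38+/- replicate 2 left out the count by Pearson's r was 1, and with Cd38+/+ replicate 2 left out it was 11. Within the 6 Cd38-/- libraries alone, 0 of 36 pairs were under an adjusted 0.05 and 16 under an unadjusted exact permutation p of 0.05.

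Mal stood apart from the others. All 4 negative correlations among the 36 pairs were with Mal, the lowest -0.33 with Mog (permutation p = 0.291, adjusted 0.349, rho -0.29). Its highest r was 0.63 with Opalin (permutation p = 0.028, adjusted 0.101, rho 0.68). Its r with the mean of the other 8 genes, each centred and scaled to the same SD, was 0.16. That of Ermn, Cnp, Cldn11 and Mog with the mean of their others lay between 0.53 and 0.65. For Opalin, Mbp, Mobp and Mag it lay between 0.77 and 0.81. After the mean of each genotype was removed, Mal correlated with Mbp at 0.69 and with Mobp at 0.69, and 19 of 36 pairs passed an adjusted 0.05 in a permutation test that treats the 12 centred libraries as exchangeable.

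**Figure D4:**
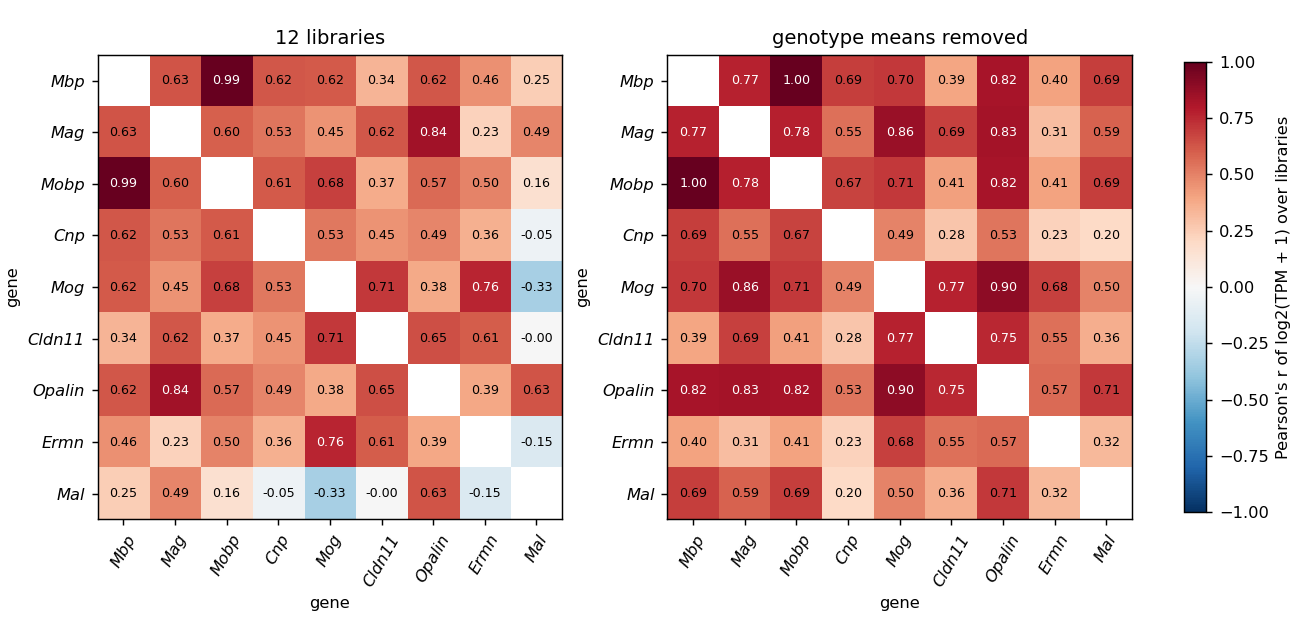
Pearson's r of log2(TPM + 1) over 12 libraries for each pair of the 9 genes (left) and after the mean of each genotype was removed (right), coloured from blue for -1 to red for 1. Mbp with Mobp is the darkest cell in both panels (0.99 and 1.00), and the row of Mal turns from values between -0.33 and 0.63 to values between 0.20 and 0.71.

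The 9 genes were also set against a marker of the selected cells and against gene detection, in 18 relations, of which 0 passed an adjusted 0.05 and 3 an unadjusted permutation p of 0.05. Cnp had the highest r with Gja1, 0.70 (permutation p = 0.0112, adjusted 0.101, rho 0.61), and Mbp an r of 0.28 (permutation p = 0.388, adjusted 0.524, rho 0.15). Mal had r = -0.74 with the number of genes above 0 (permutation p = 0.0074, adjusted 0.101, rho -0.73), which was -0.33 after genotype means were removed and -0.42 without the 2 farthest libraries. Both Mal and gene detection separate most Cd38+/+ libraries from the mutants, and the part of detection in the Mal values was not tested.

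Over 11838 other expressed genes, the 10 whose pattern was most like the mean of the 9 were named by Pearson's r over the 12 libraries, as a description without a test. For this mean, used below as well, the log2(TPM + 1) values of each gene were centred and scaled to the same SD. Low genes such as Cldn11 and Mog therefore weighed as much in it as Mbp. The closest was Qdpr, which regenerates tetrahydrobiopterin (r = 0.905; 142.37 to 571.42 TPM), followed by Bcas1, a gene of myelin-forming oligodendrocytes that is in the lineage and precursor list (r = 0.858; 48.86 to 621.86 TPM). Bcas1 was highest in Cd38-/- replicate 3 and lowest in Cd38+/+ replicate 3, as Mbp was. The others were the tubulin gene Tubb4a (0.846), Tagln3 (0.842), the signal peptidase genes Spcs1 (0.833) and Sec11c (0.832), the mitochondrial ribosomal gene Mrpl55 (0.820), Stmn4 (0.819), the creatine synthesis gene Gatm (0.819) and Sat1 (0.815). The median r of all candidates was -0.14, and the libraries shared by all points tie these values to the same 12 samples.

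Other genes of the oligodendrocyte programme were taken from 2 lists. Of 23 other genes of mature oligodendrocytes, 14 were tested. In Cd38+/- against Cd38+/+ libraries 0 of 14 were called by limma (3 at an unadjusted p under 0.05), and in Cd38-/- against Cd38+/+ libraries 1 was called higher and 0 lower, against 8.28% of all genes, with medians of 0.32 and 0.08 on the log2 scale beside 0.18 and 0.15 over all genes. Between the mutant genotypes 0 of 14 were called (2 at an unadjusted p under 0.05). The gene called was Aspa, which splits N-acetylaspartate. Aspa was 4.69 to 12.82 TPM in Cd38+/+, 25.36 to 30.72 TPM in Cd38+/- and 19.35 to 32.52 TPM in Cd38-/- libraries, with every mutant library above every Cd38+/+ library. Of all genes, 22.5% were without overlap in Cd38+/- against Cd38+/+ and 11.8% in Cd38-/- against Cd38+/+. Its log2 fold change in Cd38-/- was 1.47 (standard error 0.29, limma q = 0.0172), past the threshold in 15 of 19 alternatives but not without Cd38-/- replicate 2 or 5 (q = 0.0564 and 0.0527), with library quality weights (q = 0.257) or with the replicate block (q = 0.318). Aspa did not follow the myelin genes, with r = 0.14 to their mean.

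Of these 23 genes, 20 had an r above 0 with the mean of the 9, with a median of 0.44, beside 34.3% of all candidates above 0. Myrf was 0 to 6.29 TPM in all libraries, below the filter.

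Of 14 genes of the lineage and of its precursors, 13 were tested. None was called in Cd38+/- against Cd38+/+ libraries (2 at an unadjusted p under 0.05 by limma) or between the mutant genotypes (0 at that p), and 1 was called lower and 0 higher in Cd38-/- against Cd38+/+ libraries, Neu4, a sialidase, against 8.28% of all genes. Neu4 was 29.73 to 32.15 TPM in Cd38+/+, 5.42 to 13.32 TPM in Cd38+/- and 5.92 to 29.05 TPM in Cd38-/- libraries, with the highest mutant library, Cd38-/- replicate 6, just below Cd38+/+. Such a lack of overlap with Cd38+/+ was shown by 22.5% of all genes in Cd38+/- and 11.8% in Cd38-/- libraries. Its log2 fold change in Cd38-/- was -1.26 (standard error 0.37, limma q = 0.0439), past the threshold in 8 of 19 alternatives. The call was lost without any of Cd38+/+ replicate 2 and Cd38-/- replicates 1 to 5 (q = 0.0517 to 0.101), with quality weights (q = 0.566) or with the replicate block (q = 0.318). A pseudocount of 0.1 (limma q = 0.0505), Benjamini-Hochberg adjustment (0.0777) and a fit without the trend (limma q = 0.0523) also lost it. The lineage regulators Olig1 (209.82 to 472.90 TPM), Olig2 (36.38 to 84.19 TPM) and Sox10 (6.41 to 35.23 TPM) and the precursor receptor Pdgfra (11.04 to 77.14 TPM) were present in all libraries and were not called in any comparison. Of the 14 genes, 4 had an r above 0 with the mean of the 9, a share near the 34.3% of all candidates, and 10 an r below 0. The r was 0.86 for Bcas1, 0.57 for Enpp6, 0.16 for Olig1, 0.12 for Nkx2-2, -0.41 for Sox10, -0.42 for Olig2, -0.54 for Pdgfra and -0.88 for Vcan, and the difference from the mature genes was not tested.

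**Figure D5:**
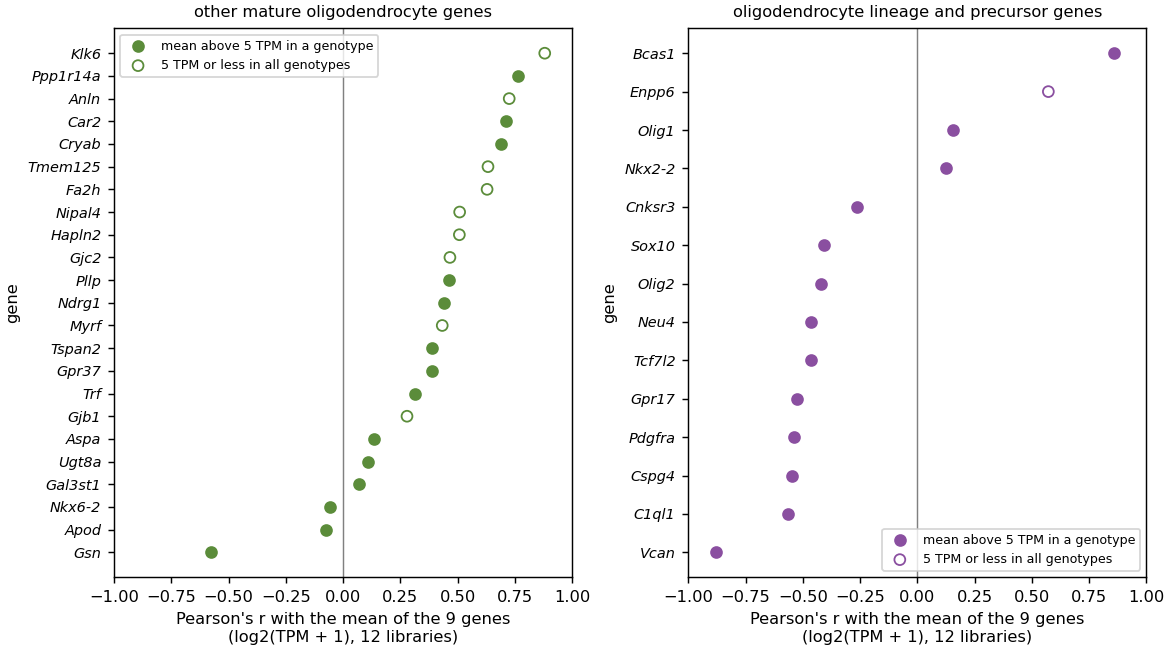
Pearson's r of 23 other mature oligodendrocyte genes (left) and 14 lineage and precursor genes (right) with the mean of the 9 genes over 12 libraries. For that mean the log2(TPM + 1) values of each gene were centred and scaled to the same SD. Filled points are genes with a mean above 5 TPM in a genotype, open points lower genes. Of the mature genes 20 of 23 lie to the right of 0, and of the lineage and precursor genes 4 of 14 do, beside 34.3% of all candidate genes.

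Markers of cells that the beads were meant to remove or leave behind were also present. The 12 neuronal genes summed to 45.2 to 144 TPM, the 10 microglial genes to 110 to 188 TPM and the 8 endothelial genes to 506 to 2743 TPM, beside 1282 to 17615 TPM for the 9 myelin genes. The 6 mural genes summed to 459 to 1081 TPM and the 6 ependymal genes to 2127 to 4554 TPM. Snap25, a neuronal synaptic gene, was 11.38 to 60.69 TPM, and Cldn5 of endothelial cells 84.14 to 488.18 TPM. Tmem119, a microglial marker, was at 0 in the 3 Cd38+/+ libraries and 0.69 to 9.28 TPM in the other 9, the same split as Mog. The 6 choroid plexus genes summed to 45.6 to 305 TPM in Cd38+/+, 198 to 7310 TPM in Cd38+/- and 221 to 1969 TPM in Cd38-/- libraries, and 4 of the 6 were called higher in Cd38-/- against Cd38+/+, against 8.28% of all genes. Their part in the values of the 9 genes was not tested. Whether myelin fragments, whole oligodendrocytes or the selected cells gave the RNA was not tested.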

How the data were processed

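RNA-seq was performed on 12 libraries of bead-isolated astrocytes, grouped by the genotype in the labels. Per the methods and processing notes, the authors trimmed reads with Trim Galore (0.6.4), mapped them to mm10 with STAR (2.7.1a) and estimated expression with RSEM (1.2.28). The annotation is not given in the sources used here. The deposited values are TPM, 1 column per library. They are not counts, so depth is unknown.

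Genes whose mean exceeded 5 TPM in either genotype of a comparison were fitted as log2(TPM + 1) with limma (3.58.1, trended eBayes) in R (4.3.3), using the libraries of both genotypes. A fold change on this scale understates that of low genes. Storey q-values under 0.05 with at least 1.2-fold change were called. The methods do not name the test behind the q-values of the study. The processing notes also list a tool for count data, with no role given, which TPM values do not suit, so limma was a choice made here. The fit was tested on simulated data. Single genes were compared by two-sided exact permutation tests, and correlations by 100000 permutations. The genes and lists were chosen with earlier results of these data known. Besides the 9 genes, Cd38, fixed oligodendrocyte genes, list genes past the test, markers of other cells and the 10 most similar genes were named. The results of a further list gene are left out. Positions came from GENCODE vM21 (GRCm38), and promoters of 8 of the 9 genes from RefSeq (GRCm38.p6). Alternatives were pseudocounts of 0.1 and 5, 2 other filters, Benjamini-Hochberg adjustment, no trend, quality weights, median-ratio scaling, 1 fit of all libraries, a replicate block and leaving out each library.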

Additional observations from a re-analysis of the deposited data

How the results depend on the processing

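The count of 0 called genes in Cd38+/- against Cd38+/+ libraries became 1 (Mog) in a single fit of all 12 libraries, which called 1464 of 11763 genes. In Cd38-/- against Cd38+/+ it became 1 without the filter (Mog), 1 in the single fit (Mal, q = 0.0481, with 1822 of 11722 genes called), and 0 to 1 when each library was left out (1 being Mal without Cd38+/+ replicate 3, with 3119 of 11779 genes called, against 970 of 11722 with all libraries). Between the mutants it became 3 with library quality weights (Cnp -0.275, Mobp 0.955 and Mbp 0.894 on the log2 scale), where 3120 of 11563 genes were called. The cause of these differences was not tested. Of 36 pairs, 2 passed with a pseudocount of 0.1, 19 with genotype means removed, and 1 to 11 with a library left out.

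Log2 fold changes turned sign for several genes that were not called. Quality weights gave Mag -0.484 in Cd38+/- against Cd38+/+, and Ermn 0.153, Mal 0.116 and Mag 0.0456 between the mutants. Median-ratio scaling gave Cnp -0.0669 in Cd38-/- against Cd38+/+. The replicate block gave Cnp -0.0574 there and Mal 0.071 between the mutants, turned no other sign and called no member, and it called 2 genes in Cd38-/- against Cd38+/+ instead of 970. The labels do not say whether equal replicate numbers mark paired samples. Correlations of the deviations of libraries with equal numbers lay between -0.31 and 0.45, which cannot decide it with so few libraries. With each library left out in turn, Cd38+/- against Cd38+/+ gave -0.0577 to 1.4 for Mobp, -0.872 to 0.86 for Mag, -0.391 to 1.18 for Mbp and 0.254 to 0.478 for Opalin, which passed the filter in 2 of these fits (-0.02 without the filter). Cd38-/- against Cd38+/+ gave -0.0414 to 0.13 for Cnp, -0.998 to 0.194 for Mag and -0.00209 to 1.57 for Mbp. Between the mutants the ranges were -0.619 to 0.228 for Ermn, -0.13 to 0.16 for Mal, -1.3 to 0.334 for Mag and -0.00375 to 1.02 for Mbp.

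Depth is unknown, 3 Cd38+/+ libraries enter both comparisons, and their lower gene detection cannot be told apart from genotype.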
